A study of Oryza sativa with 12 samples.

Results

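The genes described here are the DNA replication, cell cycle and histone genes of rice (Oryza sativa) seedlings. They are the rows whose symbol in the deposited files begins as a cyclin (CYC), cyclin-dependent kinase (CDK), CDK inhibitor (KRP), minichromosome maintenance protein (MCM), origin recognition complex subunit (ORC), replication protein A subunit (RPA) or core histone. This rule gave 69 genes of 112071 features listed, 2079 of which were reference genes with a symbol. The rule uses names alone and no measured value. The prefixes for PCNA, ribonucleotide reductase (RNR), H2A and H4 matched no symbol, and those genes were not analysed here.

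RNA was sequenced from whole seedlings of the cultivar ZH11 that were 14 days old and grown on MS medium. All 4 groups share this background, age and medium, and each has 3 libraries, described by the submitters as biological repetitions. The groups are untreated wild type (wild type control), wild type given Br-cGMP, a membrane-permeant analog of cyclic GMP, at 10 µM for 5 h (wild type Br-cGMP), and the same 2 conditions in seedlings whose genotype is labelled PKG-/-, called pkg control and pkg Br-cGMP below. PKG is the cyclic GMP-dependent protein kinase, which the study places in gibberellin signalling. The labels do not say how the mutant was made, how many lines it covers, or how many seedlings went into 1 library. The files give no symbol to OS02G0281000, the locus taken here for PKG. It averaged 6.68 ± 0.648 FPKM (SD, n = 3) in control and 5.72 ± 0.973 FPKM in Br-cGMP libraries of wild type, against 8.57 ± 1.19 and 7.11 ± 2.98 FPKM in those of pkg. The mean was not lower in libraries labelled pkg, so the transcript level gives no support to the genotype label. With the lesion not described, it does not speak against the label either. FPKM, the unit these values were read in, is the number of fragments scaled by gene length and by a total for each library. Per-library values are given in the order of replicates 1, 2 and 3. The libraries held 6667261 to 9438909 recovered reads. Coordinates below are those of the files, whose genome build was not given in the sources used here.

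In plants, as in other eukaryotes, the origin recognition complex marks replication origins and loads the MCM helicase on them before S phase. Replication protein A coats the single strands that open at the fork, and new histones package the copied DNA. D-type cyclins drive entry into the cycle, A-type cyclins act through S phase into mitosis, and B-type cyclins with the plant-specific B-type CDKs drive mitosis. KRP proteins inhibit CDKs. In a seedling, division is concentrated in the shoot and root meristems and in the bases of young leaves.

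Of the 69 genes, 36 reached 1 FPKM in at least 3 libraries and could be tested, 7 had some signal under that filter, and 26 were listed at 0 in all 12 libraries. Testable genes numbered 5 of 11 for origin recognition and helicase loading (MCM and ORC), 6 of 7 for replication protein A, 7 of 10 for histones, 4 of 10 for D cyclins, 3 of 3 for A cyclins, 2 of 4 for B cyclins and B-type CDKs, and 2 of 4 for KRP inhibitors. The remaining cyclins and CDKs had 7 of 20 testable. The 7 under the filter were CYCD7-1, ORC4, ORC6, KRP2, CDKF-3, CYCT1_2 and the H3R-11 row OS11G0155900, with highest values of 0.0493 to 2.03 FPKM. The 26 listed at 0 were MCM2, MCM7, MCM9, ORC2, RPA3, H2B.5, the H3R-11 row OS06G0160001, CYCD2-1, CYCD3-2, CYCD5-2, CYCD5-3, CYCD6-1, CYCB2-2, CDKB1-1, KRP5, CDKC-1, CDKC-2, CDKE-1, CDKF-4, CDKG-1, CYCF1-4, CYCF2-1, CYCF2-2, CYCH1-1 and both rows named CYCT1-1. MCM2 and MCM7 are subunits of the same hexamer as MCM3, MCM4 and MCM5, which had reads. Of the 26, 24 (92.3%) overlapped another listed feature on the same strand, against 15 of the 43 genes with signal (34.9%). Over all reference genes, 56.2% of the 18366 with such an overlap and 24.2% of the 19464 without one were listed at 0. The feature overlapping MCM2 was at 0.838 to 4.02 FPKM, and the highest of the 3 overlapping CDKG-1, a CDK of the G class, was at 8.98 to 15.4 FPKM, with the others at 0.109 FPKM or less. Those overlapping MCM7 and CDKB1-1 were at 0 too. The part of overlap in these zeros was not tested, so a gene listed at 0 is not described as unexpressed.

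The levels of the testable genes followed single libraries more than the 4 groups. Wild type control 2, pkg control 1 and pkg Br-cGMP 1, each from a different group, were the 3 highest libraries for 21 of 36 genes (58.3%), against 5.13% of the 25238 features tested. All 5 MCM and ORC genes, 4 of 6 replication protein A genes, 5 of 7 histone genes, 3 of 4 D cyclins, 2 of 3 A cyclins and both mitotic genes had this order. None of the 2 KRP genes and none of the 7 remaining cyclins and CDKs had it. These 3 libraries were singled out after the values were seen, so the counts are descriptions, and RPA2C passed the filter through these 3 libraries alone. They were not deeper than the rest, with 8485267, 8543653 and 7994988 reads.

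Against the mean of the other 2 libraries of its group, wild type control 2 was higher by a median factor of 4.48 over the 36 genes, and 22 of them were more than 2-fold higher. Pkg control 1 was higher by a median factor of 4.66, with 24 genes more than 2-fold higher. Pkg Br-cGMP 1 was higher by a median factor of 2.94, with 21 genes more than 2-fold higher. The same factor over all tested features was 0.975, 0.981 and 0.949, and 14.0%, 16.0% and 17.5% of features were more than 2-fold higher. At the other end, pkg Br-cGMP 3 was the lowest library for 13 genes and pkg control 3 for 8. Together these 21 of 36 genes (58.3%) compare with 5038 of the 25238 features tested that were lowest in either library.

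**Figure D1:**
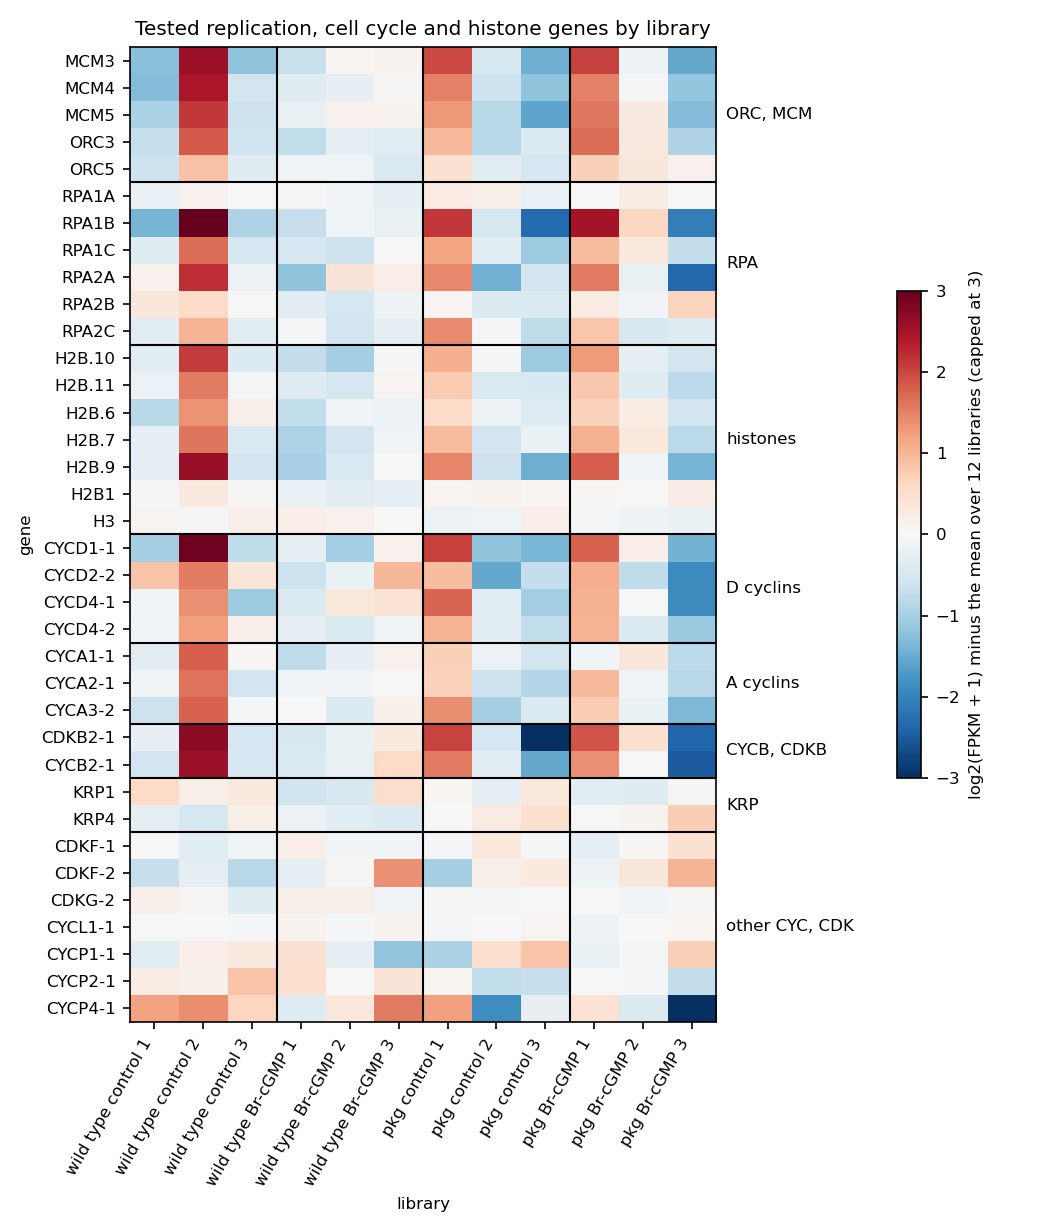
Colour shows log2(FPKM + 1) in each of the 12 libraries (columns, 3 per group) minus the gene's mean over the 12, capped at 3, for the 36 tested genes (rows, by role). Wild type control 2, pkg control 1 and pkg Br-cGMP 1 are red for 21 genes as the 3 highest libraries, while the KRP genes and the 7 remaining cyclins and CDKs lack that order.

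Markers of other tissues were read beside these values. The 4 root genes were listed because earlier results on these libraries had shown them near 0 in 3 libraries. Their low sums there were thus known in advance and are description alone. Summed over these 4 root genes, wild type control 3, pkg control 3 and pkg Br-cGMP 3 had 16.1, 6.91 and 13.9 FPKM. The other 9 libraries had 198 to 3422 FPKM. Of those 4 genes, 1, 3 and 1 were listed at 0 in these 3 libraries and none elsewhere. The 198 FPKM was in pkg Br-cGMP 1, and the next lowest sum was 852 FPKM in wild type control 1. Wild type control 2 and pkg control 1 had 1151 and 1243 FPKM. The 4 SCR and SHR genes, regulators of root tissue patterning that leaves also express, summed to 120.0, 91.7 and 74.0 FPKM in the 3 libraries with high replication genes (wild type control 2 first). The other libraries had 15.9 to 72.4 FPKM, with pkg Br-cGMP 3 the lowest. Of 10 listed shoot meristem genes, 7 had signal. Their sum was 33.1, 65.6 and 75.5 FPKM in the 3 libraries with high replication genes, within the range of 16.9 to 95.4 FPKM over all libraries. Among them WOX2 was above 0 in those 3 libraries alone, at 5.08, 2.6 and 2.01 FPKM. None of the others with signal had those 3 libraries highest. OSH15, a KNOX gene of the shoot meristem and stem, was listed at 0 in the 3 libraries low in root genes and stood at 5.65 to 48.9 FPKM elsewhere. The leaf photosynthesis list, with 6 of 11 genes above 0, summed to 3460.0, 2550.0 and 4159 FPKM in the 3 high libraries. By this sum pkg control 1 and wild type control 2 were the 2 lowest of the 12 libraries, but wild type Br-cGMP 2 and 3 were close at 3547 and 3579 FPKM. Its largest parts, PSAH and RBCS, differed in order. PSAH was lowest in pkg control 1 at 1668 FPKM, and RBCS in wild type Br-cGMP 3 at 562 FPKM. Pkg control 3, low in the replication genes, had the highest sum at 10170.0 FPKM. The part of tissue content in the replication genes' levels was not tested. In whole seedlings, fewer dividing cells and less RNA per cell cannot be told apart.

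The helicase genes were at low levels in most libraries. MCM3 (OS05G0476200, chromosome 5, 23419626 to 23424595) had 1.24, 30.5 and 1.33 FPKM in control and 2.36, 4.52 and 4.78 in Br-cGMP libraries of wild type, and 20.1, 2.83 and 0.927 in control and 21.1, 3.82 and 0.849 in Br-cGMP libraries of pkg. Within wild type control, library 2 was 23.8 times the mean of libraries 1 and 3, and the ranges of all 4 groups overlapped. MCM4 (OS01G0544450) had 1.67, 35.4 and 3.53 FPKM in control and 4.18, 4.56 and 5.81 in Br-cGMP libraries of wild type, and 17.8, 3.27 and 1.87 in control and 17.8, 5.45 and 1.97 in Br-cGMP libraries of pkg. MCM5 (OS02G0797400) had 1.56, 20.7 and 2.2 FPKM in control and 3.24, 4.45 and 4.34 in Br-cGMP libraries of wild type, and 11.1, 1.77 and 0.655 in control and 13.9, 4.98 and 1.02 in Br-cGMP libraries of pkg. All of these helicase subunits thus had the same 3 high libraries, with 9 libraries under 6 FPKM. Of the origin recognition subunits, ORC3 ranged from 0.175 to 6.83 FPKM and ORC5 from 0.0513 to 1.99 FPKM, each with 3 reads or fewer in its lowest library. ORC4 reached at most 0.13 FPKM, ORC6 at most 0.115 FPKM, and ORC2 was listed at 0.

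Replication protein A is a trimer, and its large subunit has several gene copies. They differed in how much they varied. RPA1A (OS02G0776800) was at 11.3, 14.6 and 13.1 FPKM in control and 13.5, 12.5 and 10.7 in Br-cGMP libraries of wild type, and 16.0, 15.1 and 11.2 in control and 13.1, 15.6 and 13.4 in Br-cGMP libraries of pkg. Its highest library was 1.5 times its lowest. RPA1B (OS03G0214100, chromosome 3, 5979594 to 5983020) was at 3.03, 86.6 and 4.6 FPKM in control and 5.54, 8.71 and 8.13 in Br-cGMP libraries of wild type, and 45.2, 6.39 and 1.11 in control and 58.8, 15.2 and 1.53 in Br-cGMP libraries of pkg. This gene spanned 77.9-fold over the same libraries and was highest in the 3 libraries named above. RPA1C had the same 3 high libraries with a range of 1.02 to 12.9 FPKM, as did RPA2C, which was listed at 0 in its lowest library and reached 3.5 FPKM. Among the middle subunits, RPA2A was at 8.05, 37.7 and 6.38 FPKM in control and 2.57, 9.89 and 8.6 in Br-cGMP libraries of wild type, and 21.4, 2.05 and 4.66 in control and 23.5, 6.13 and 0.632 in Br-cGMP libraries of pkg. Its lowest level was in pkg Br-cGMP 3, the library also lowest for 12 other genes. RPA2B stayed between 0.571 and 2.57 FPKM, with its highest level in pkg Br-cGMP 3. RPA3, the small subunit, was listed at 0.

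**Figure D2:**
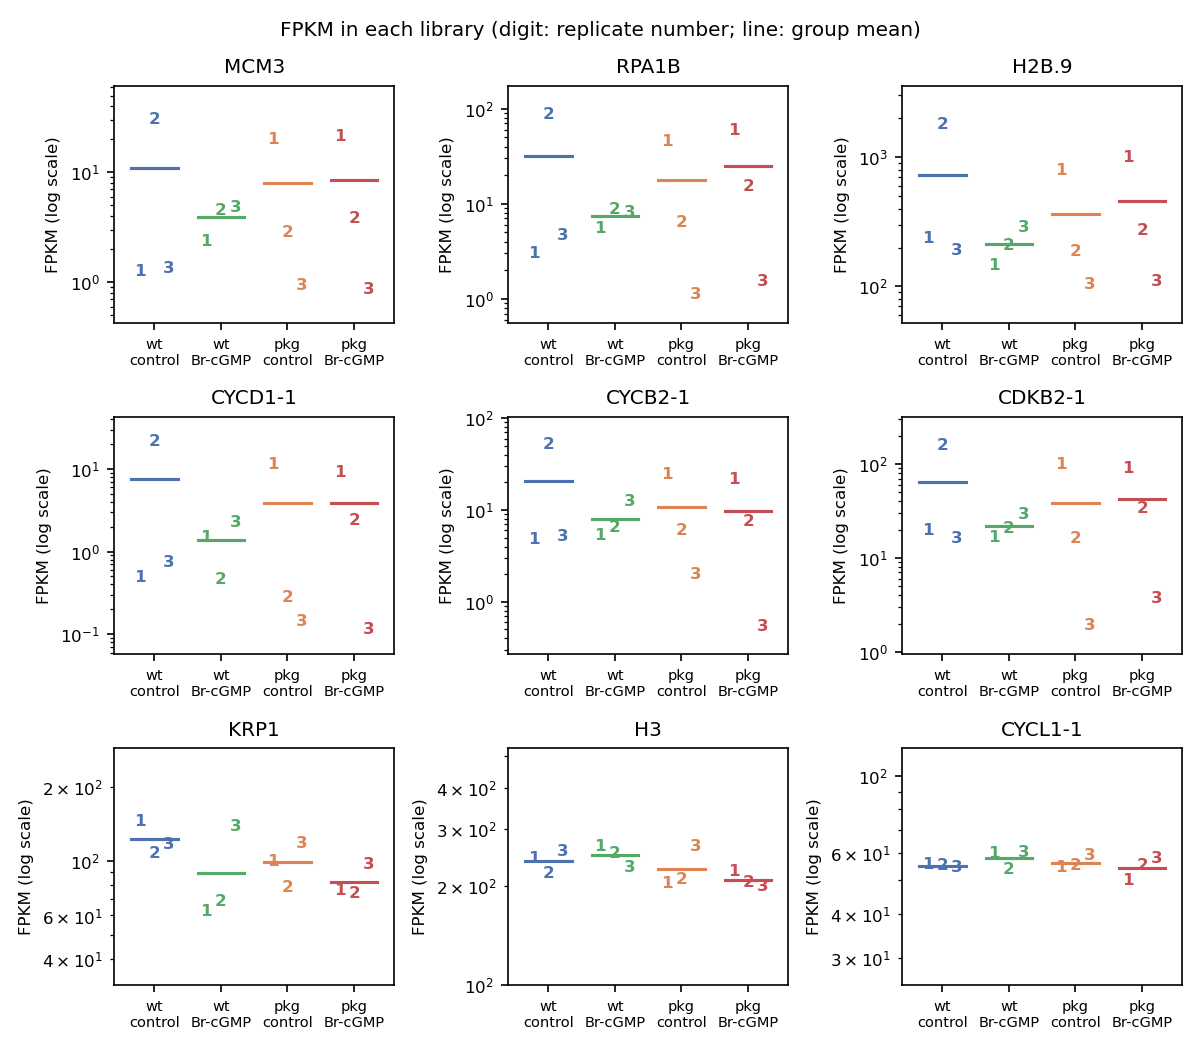
Each digit is the FPKM of 1 library (log axis, replicate number as digit) in wild type (wt) and pkg groups, and each line is the group mean, for 9 genes of different roles. In 6 of the panels wild type control 2, pkg control 1 and pkg Br-cGMP 1 stand above the other libraries; KRP1, H3 and CYCL1-1 lack that order.

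The highest levels of the set, per gene length, belonged to histone genes. H2B.9 (OS05G0574300, chromosome 5, 28611981 to 28612666) stood at 235, 1774 and 191 FPKM in control and 145, 209 and 286 in Br-cGMP libraries of wild type, and 793, 187 and 104 in control and 995, 269 and 109 in Br-cGMP libraries of pkg. The 3 high libraries lay between 793.5 and 1774 FPKM and the other 9 at 104 to 286 FPKM. H2B.11 (OS01G0839500) stood at 245, 810.4 and 263 FPKM in control and 208, 195 and 289.5 in Br-cGMP libraries of wild type, and 470.1, 201 and 197 in control and 481, 214 and 158 in Br-cGMP libraries of pkg, with the same 3 libraries highest. H2B.6, H2B.7 and H2B.10 lie close together on the minus strand of chromosome 1, between 2820074 and 2858128, and inside an added feature on the same strand. Reads could be split between such near copies, so their levels are uncertain; all had these 3 libraries highest, with ranges of 8.01 to 39.9 FPKM, 11.9 to 73.6 FPKM and 9.9 to 99.3 FPKM. The other histone genes tested, which are among the 6 genes that varied less than 2-fold over the 12 libraries, did not share the pattern. H2B1 (OS03G0279000, chromosome 3, 9492827 to 9493512) stood at 94.96, 121 and 101 FPKM in control and 86.5, 79.5 and 81.2 in Br-cGMP libraries of wild type, and 104, 107 and 104 in control and 104, 98.4 and 115 in Br-cGMP libraries of pkg. The gene with the symbol H3 (OS03G0390600) stood at 243, 219 and 255 FPKM in control and 265, 253 and 229 in Br-cGMP libraries of wild type, and 204, 210.0 and 264 in control and 222, 205 and 199.8 in Br-cGMP libraries of pkg. Its lowest level was in pkg Br-cGMP 3 and its highest in wild type Br-cGMP 1, 1.33-fold apart.

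Among the D cyclins, CYCD1-1 (OS06G0236600, chromosome 6, 7102964 to 7106821) was at 0.489, 21.3 and 0.748 FPKM in control and 1.47, 0.46 and 2.27 in Br-cGMP libraries of wild type, and 11.2, 0.281 and 0.141 in control and 9.09, 2.41 and 0.115 in Br-cGMP libraries of pkg. The 3 high libraries lay at 9.09 FPKM or more and no other library exceeded 2.41 FPKM. CYCD4-1 was at 3.14, 10.2 and 1.06 FPKM in control and 2.24, 4.44 and 4.75 in Br-cGMP libraries of wild type, and 13.5, 2.45 and 1.11 in control and 8.1, 3.29 and 0.151 in Br-cGMP libraries of pkg. CYCD2-2 was at 7.4, 12.3 and 4.91 FPKM in control and 1.94, 2.999 and 8.21 in Br-cGMP libraries of wild type, and 7.81, 0.595 and 1.8 in control and 8.8, 1.73 and 0.22 in Br-cGMP libraries of pkg. Wild type control 2 was its highest library too, while wild type Br-cGMP 3 stood above pkg control 1. CYCD4-2 ranged from 1.61 to 12.1 FPKM, again with those 3 highest. The A cyclin CYCA3-2 (OS12G0581800) was at 2.92, 19.97 and 4.996 FPKM in control and 5.16, 3.6 and 5.85 in Br-cGMP libraries of wild type, and 15.1, 2.1 and 3.56 in control and 9.48, 4.34 and 1.41 in Br-cGMP libraries of pkg. CYCA2-1 had the same 3 libraries highest, and CYCA1-1 was highest in wild type control 2 with a range of 0.243 to 6.33 FPKM.

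The mitotic genes were among those with the widest spread between libraries. CDKB2-1 (OS08G0512600, chromosome 8, 25419884 to 25421722), a B-type CDK, was at 19.6, 158 and 16.3 FPKM in control and 16.6, 20.5 and 28.9 in Br-cGMP libraries of wild type, and 98.7, 16.1 and 1.9 in control and 89.9, 33.3 and 3.71 in Br-cGMP libraries of pkg. Wild type control 2 was 83.3 times pkg control 3. CYCB2-1 (OS04G0563700, chromosome 4, 28218760 to 28221536), a B-type cyclin, was at 4.79, 51.5 and 5.1 FPKM in control and 5.33, 6.4 and 12.2 in Br-cGMP libraries of wild type, and 24.7, 5.96 and 1.99 in control and 21.5, 7.59 and 0.541 in Br-cGMP libraries of pkg. Its highest library was 95.2 times its lowest, pkg Br-cGMP 3. Over both genes, the median deviation from a gene's own mean was 2.65 in wild type control 2, against -2.31 and -2.44 in the third pkg control and pkg Br-cGMP libraries, on the log2(FPKM + 1) scale. CDKB1-1 and CYCB2-2 were listed at 0.

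The 2 tested inhibitor genes varied little and in another order. KRP1 (OS02G0762400, chromosome 2, 32111311 to 32112948) was at 145, 107 and 117 FPKM in control and 62.4, 68.1 and 138 in Br-cGMP libraries of wild type, and 99.6, 78.2 and 118 in control and 75.9, 73.9 and 97.05 in Br-cGMP libraries of pkg. It was highest in wild type control 1 and lowest in wild type Br-cGMP 1, 2.32-fold apart. KRP4 (OS10G0471700, chromosome 10, 17499846 to 17503202) was at 23.6, 20.1 and 33.3 FPKM in control and 25.9, 22.9 and 21.3 in Br-cGMP libraries of wild type, and 29.2, 35.1 and 41.6 in control and 29.6, 31.6 and 49.7 in Br-cGMP libraries of pkg. Its 2 highest libraries were pkg Br-cGMP 3 and pkg control 3, the libraries in which the mitotic genes were lowest, and its lowest was wild type control 2, in which they were highest. KRP2, under the filter, was highest in wild type control 2 at 1.99 FPKM and next in pkg Br-cGMP 1 at 0.77 FPKM. It was listed at 0 in several libraries, among them pkg control 3 and pkg Br-cGMP 3. KRP5 was listed at 0 in all.

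The remaining cyclins and CDKs include genes with roles outside the core cycle. CYCL1-1, a cyclin of the L class linked to RNA processing, was at 55.5, 55.05 and 54.4 FPKM in control and 59.7, 53.7 and 60.1 in Br-cGMP libraries of wild type, and 54.6, 55.1 and 59.2 in control and 50.05, 55.3 and 57.9 in Br-cGMP libraries of pkg, the smallest ratio of highest to lowest among the 36 genes. CDKF-1, a kinase that activates other CDKs, ranged from 57.4 to 101 FPKM and CDKG-2 from 1.08 to 2.02 FPKM. P-type cyclins, relatives of a cyclin of the phosphate response in yeast, varied more: CYCP4-1 (OS10G0563900) was at 127, 146 and 86.8 FPKM in control and 41.9, 69.0 and 163 in Br-cGMP libraries of wild type, and 129, 14.3 and 46.2 in control and 74.1, 40.3 and 2.98 in Br-cGMP libraries of pkg. Its lowest library was pkg Br-cGMP 3. CYCP1-1 (OS04G0628900) was at 10.3, 15.3 and 16.4 FPKM in control and 18.5, 11.1 and 5.29 in Br-cGMP libraries of wild type. In pkg it was at 6.43, 19.0 and 24.7 FPKM in control and 11.5, 12.7 and 22.6 in Br-cGMP libraries. It was highest in pkg control 3 and lowest in wild type Br-cGMP 3.

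Over all 36 genes, the highest library was more than 10 times the lowest for 21, against 39.6% of tested features. It was less than 2 times the lowest for 6 (RPA1A, H2B1, H3, CDKF-1, CDKG-2 and CYCL1-1), against 14.3% of features. The median SD of a gene over the 12 libraries was 0.747 on the log2(FPKM + 1) scale, against 0.505 for all tested features.

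**Figure D3:**
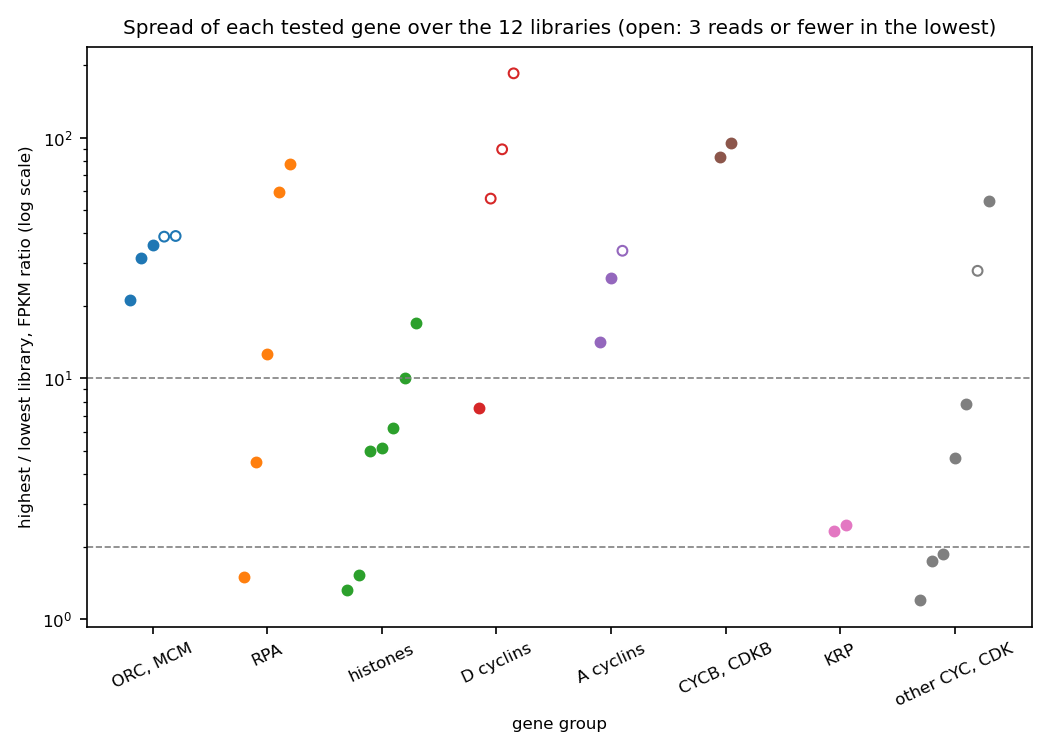
Each point is 1 tested gene, placed by role, at the ratio of its highest to its lowest library in FPKM (log axis, dashed lines at 2 and 10); open points had 3 reads or fewer in the lowest library, and RPA2C, listed at 0 in its lowest, is left out. CYCB2-1 at 95.2 and CDKB2-1 at 83.3 stand against KRP1 at 2.32 and CYCL1-1 at 1.20.

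The first comparison asked how Br-cGMP altered these genes in wild type. By limma on log2(FPKM + 1), 0 of 36 passed an adjusted p of 0.05, where 0.0% of all tested features passed; the smallest adjusted p was 0.882. At an unadjusted p under 0.05, 2 genes were lower (1.66% of features) and 0 higher (3.67% of features). These were H2B1 at -0.35 ± 0.14 (SE, unadjusted p = 0.036) and RPA2B at -0.63 ± 0.28 (unadjusted p = 0.044), as differences on the log2(FPKM + 1) scale from the limma fit. Neither was under 0.05 without wild type control 2, with limma-voom, with the replicate number as a block or with only the compared groups fitted. H2B1 averaged 106 ± 13.6 FPKM (SD, n = 3) in wild type control and 82.4 ± 3.66 FPKM in wild type Br-cGMP. Both genes had all 3 treated libraries below all 3 controls, which held for 4.86% of features. CDKF-2, a kinase of the same class as CDKF-1, was at 2.17, 3.18 and 1.88 FPKM in control and 3.2, 4.29 and 12.3 in Br-cGMP libraries of wild type, and 1.57, 4.71 and 5.27 in control and 3.62, 5.48 and 9.39 in Br-cGMP libraries of pkg. In wild type it had all 3 treated libraries above the controls (8.88% of features), with a difference of 0.99 ± 0.50 and an adjusted p of 0.882 by limma.

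The fitted differences were below 0 for 30 of the 36 genes, with a median of -0.49, against -0.0079 over all tested features, of which 48.6% were above 0. H2B.9 gave -1.06 ± 1.04, RPA1B -0.59 ± 1.46, CDKB2-1 -0.77 ± 1.38 and MCM3 -0.21 ± 1.23. This median rested on 1 library. Without wild type control 2 it was 0.030, with 19 genes above 0 and 17 below. All 5 MCM and ORC genes then lay above 0 (median 0.74), as did both mitotic genes (median 0.39), while 6 of 7 histone genes (median -0.16) and both KRP genes (median -0.44) lay below it. Of 31 genes named by rule, 13 changed sign. With that library left out, 0 genes passed the threshold as well.

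**Figure D4:**
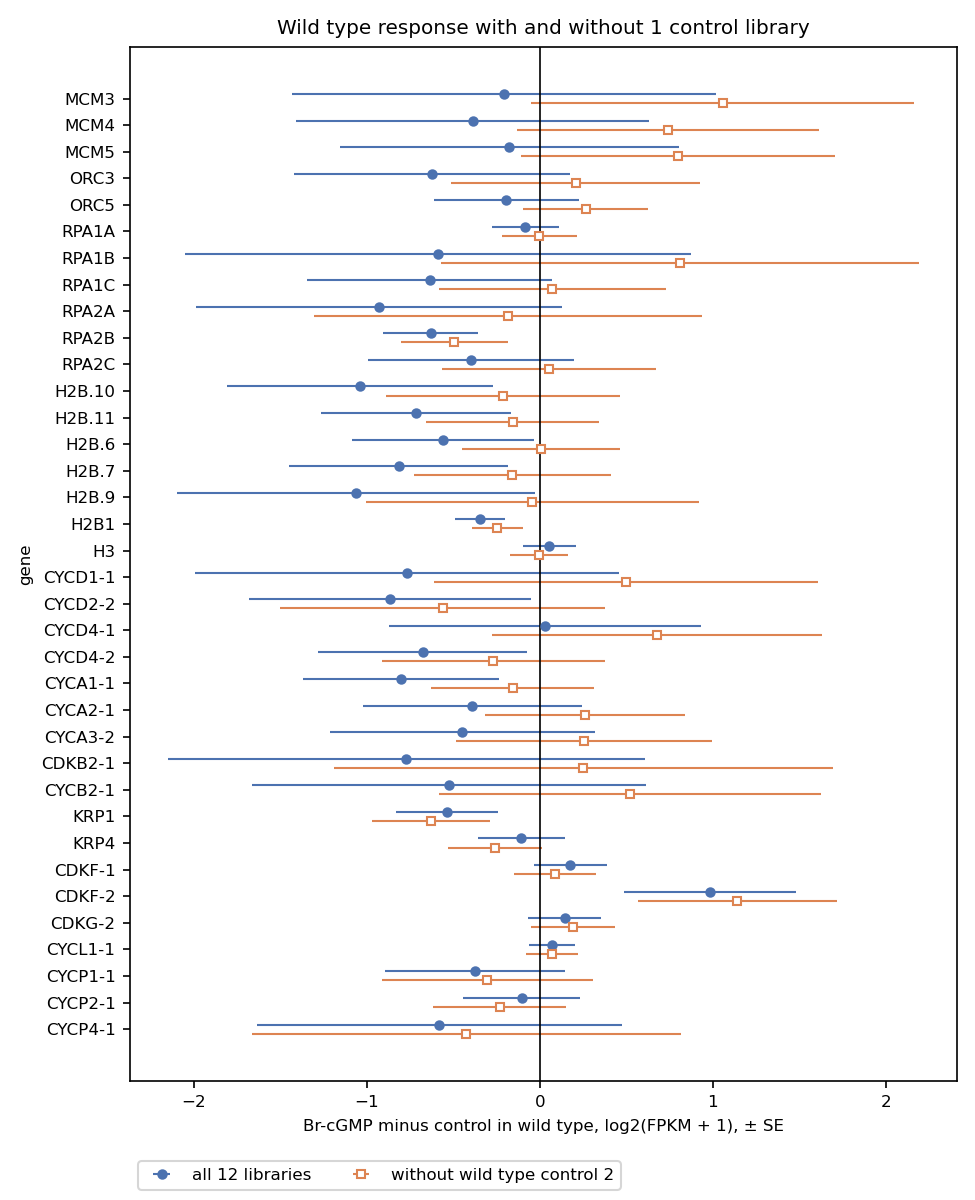
Fitted difference, Br-cGMP minus control in wild type, with its standard error on the log2(FPKM + 1) scale (x axis) for the 36 genes (y axis), from all 12 libraries (filled) and without wild type control 2 (open). With all libraries 30 genes lie below 0, and without that library 17 do.

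In pkg seedlings, 0 of 36 genes passed the limma threshold for Br-cGMP against control (0.0% of features), and 0 had an unadjusted p under 0.05 (1.47% of features higher and 1.25% lower). For no gene were the groups apart (2.71% of features higher and 2.41% lower without overlap). Same-numbered libraries deviated together in pkg, so each same-numbered pair was also read by itself, a reading added after the values were seen. That these libraries were paired was not established. Br-cGMP exceeded control in all 3 pairs for 8 genes (MCM4, MCM5, ORC5, RPA1B, RPA2B, H2B.9, CYCA2-1 and CDKF-2; 11.4% of features), and lay below it in all 3 for KRP1 (10.0% of features). The median over the 36 genes was 0.016, 0.36 and -0.030 in pairs 1, 2 and 3. With the replicate number as a block over all 12 libraries, limma gave 0 genes an unadjusted p under 0.05. That block gives wild type and pkg libraries the same replicate effects, and a paired fit of the pkg libraries alone was not made. The differences were above 0 for 21 genes and below for 15, with a median of 0.032 against -0.011 over all features. MCM3 gave 0.11 ± 1.23, RPA1B 0.59 ± 1.46 and CDKB2-1 0.52 ± 1.38. Each group here held 1 high library, replicate 1, and 1 low library, replicate 3. The median was 0.45 without pkg control 1 and 0.41 without pkg Br-cGMP 3, against -0.011, -0.19 and -0.22 without pkg control 2, pkg control 3 and pkg Br-cGMP 1.

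Without Br-cGMP, 0 of 36 genes passed the limma threshold between pkg and wild type, where 0.341% of all tested features did (86 of 25238). CYCP2-1, a P-type cyclin, was lower in pkg without overlap (5.44% of features; 5.27% were higher without overlap, with 0 of these genes), at 0.371 ± 0.47 FPKM (SD, n = 3) in pkg control and 1.43 ± 0.69 in wild type control. Its difference was -0.84 ± 0.34, with an unadjusted p of 0.031 (2.18% of features lower and 3.04% higher) and an adjusted p of 0.895 by limma. The unadjusted p was not under 0.05 without wild type control 3, pkg control 2 or pkg control 3. Of the 36 differences, 27 were below 0, with a median of -0.33 against -0.0075 over all features. Without wild type control 2 the median was 0.21, with 27 genes above 0, and 15 of the 31 named genes changed sign. It was -0.88 without pkg control 1 and 0.0024 without pkg control 3. This comparison and the wild type response share the wild type control libraries.

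Under Br-cGMP, 0 of 36 genes passed the limma threshold between pkg and wild type, where 0.341% of features did. The groups did not overlap for H2B1, KRP4, ORC5 and RPA2B, which were higher in pkg (6.65% of features), and for H3, which was lower (6.65% of features). H2B1 averaged 106 ± 8.64 FPKM (SD, n = 3) in pkg Br-cGMP against 82.4 ± 3.66 in wild type Br-cGMP, a difference of 0.36 ± 0.14 with an adjusted p of 0.479 by limma. KRP4 averaged 36.9 ± 11.1 FPKM against 23.3 ± 2.34 FPKM, a difference of 0.61 ± 0.25 with an adjusted p of 0.489 by limma. At an unadjusted p under 0.05 these 2 were higher (3.67% of features) and 0 lower (5.8% of features). The median of the 36 differences was 0.17, with 25 above 0, against -0.020 over all features. Without pkg Br-cGMP 1 it was -0.18, with 15 above 0 and 21 below; without pkg Br-cGMP 3 it was 0.48 (28 above) and without wild type Br-cGMP 3 it was 0.32 (27 above). It was 0.10 without wild type Br-cGMP 1. Neither H2B1 nor KRP4 had an unadjusted p under 0.05 without wild type Br-cGMP 2, without wild type Br-cGMP 3, without pkg Br-cGMP 3, or with only the compared groups fitted.

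The difference between the pkg and wild type responses passed the limma threshold for 0 of 36 genes, where 0.00396% of features did (1 of 25238). At an unadjusted p under 0.05, 1 gene was higher in pkg (0.931% of features) and 0 lower (1.14% of features). It was RPA2B at 1.15 ± 0.39 (unadjusted p = 0.014, adjusted p = 0.9999 by limma). RPA2B stood at 1.86, 2.35 and 1.24 FPKM in control and 0.809, 0.571 and 1.03 in Br-cGMP libraries of wild type, and 1.37, 0.696 and 0.702 in control and 1.66, 1.13 and 2.57 in Br-cGMP libraries of pkg. Its Br-cGMP libraries lay below the controls in wild type, while in pkg they overlapped them, with pkg Br-cGMP 3 the highest of all. The median difference of responses was 0.56, with 29 genes above 0, against -0.028 over all features. It was 0.029 without wild type control 2, 0.14 without pkg Br-cGMP 1, 0.22 without pkg control 3, 0.36 without pkg control 2, and 1.02 and 0.97 without pkg control 1 and pkg Br-cGMP 3.

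**Figure D5:**
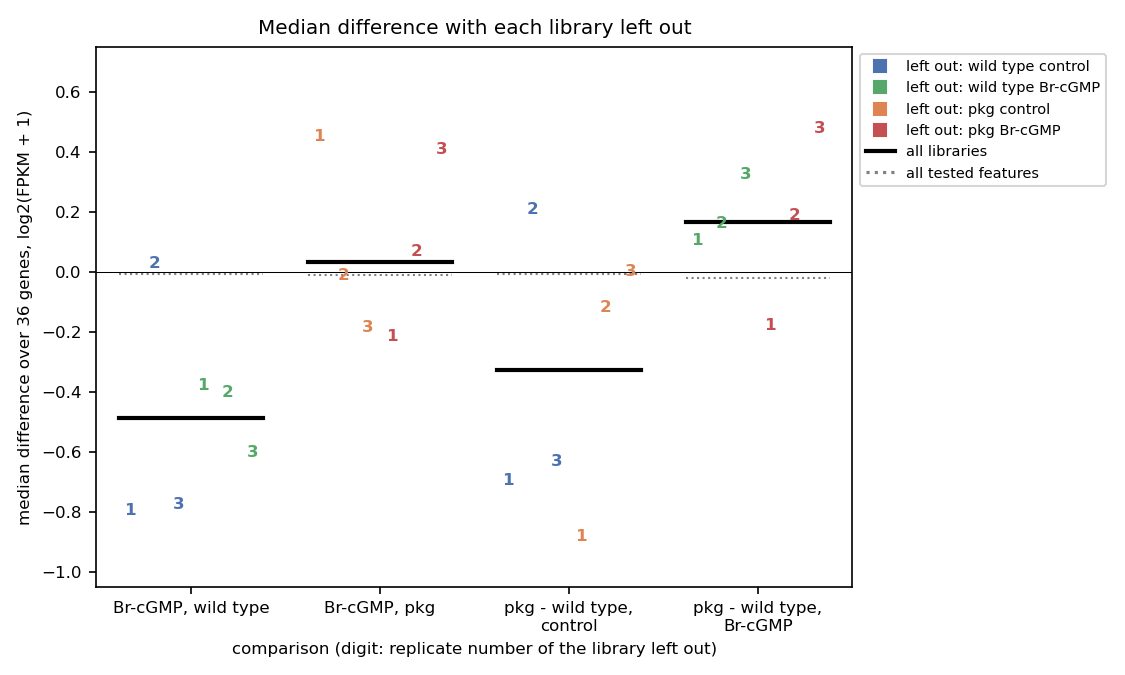
Median over the 36 genes of the fitted difference on the log2(FPKM + 1) scale (y axis) for 4 comparisons (x axis), with all libraries (black line), over all tested features (dotted line) and with each library left out in turn (digit, replicate number; colour, group). Without wild type control 2 the median lies at 0.030 for the wild type response and at 0.21 for pkg against wild type in controls.

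A list of 20 replication and cell cycle genes outside the naming rule was read beside these. Of them, 10 could be tested, 9 were listed at 0 (among them CDC6, which loads MCM, and the retinoblastoma homologs RBR1 and RBR2) and 1 was under the filter. In limma none of the 10 passed the threshold in any comparison; the smallest adjusted p was 0.527. In the wild type response 4 lay above 0 and 6 below, in the pkg response 7 and 3, and between genotypes 5 and 5 without Br-cGMP and 9 and 1 under it. CKS1, a CDK subunit, POLD1, the catalytic subunit of DNA polymerase delta, RFC5, a clamp loader subunit, and WEE1, a kinase that restrains CDKs, had the same 3 highest libraries as the helicase genes. POLD1 reached 21.0 FPKM in its highest library and 5.62 FPKM in its lowest. By limma, CKS1 alone of the 10 had an unadjusted p under 0.05. In the wild type response it gave -0.70 ± 0.26 (unadjusted p = 0.021, adjusted p = 0.882), where 1.66% of features were lower at that threshold. In pkg against wild type under Br-cGMP it gave 0.57 ± 0.26 (unadjusted p = 0.049, adjusted p = 0.527), where 3.67% of features were higher.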

How the data were processed

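The deposited values, read as FPKM from their structure, were made by the authors with CASAVA 1.8 and HISAT2, per the submitters' processing notes; which genome build, annotation and counter they used is not given in the sources used here. Multiplying each value by its gene length gave whole multiples of a per-library step (tolerance 0.01) in 100% of cases above 0, and whole reads were recovered this way. The gene length deposited by the authors in base pairs was used for that step alone. The scaling total implied by the values was not the number of recovered reads. In pkg control 1 it was 9385897, above 8543653 recovered reads. In pkg control 3 it was 6473783, below 6667261 recovered reads. Folds of low genes are understated by the pseudocount of 1.

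Differences were tested in limma 3.58.1 (R 4.3.3). The model fitted log2(FPKM + 1) of all 12 libraries by 4 group means, with trended and robust moderation. The 25238 features that reached 1 FPKM in 3 or more libraries entered, with a Benjamini-Hochberg adjusted p under 0.05 over all of them. This procedure was tested on simulated data that held no single high libraries like those described here. Tables and figures used Python 3.11.15, pandas 2.3.3 and matplotlib 3.10.9. The p-values speak of the spread among these libraries alone, 3 a group. In the main fit each gene had 1 spread estimated over all 12 libraries. A high library in 1 group therefore also widened the error of comparisons without that group. The members and lists were chosen with earlier results of these data known. The text names, in each role, the 4 tested genes with the highest mean, genes past the threshold and the 3 smallest p of each comparison (31 genes); others were named after their values were seen.

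Libraries of 1 group differed by a chi-square of 21.3 to 77.6 per degree of freedom, so none was the same library counted again. This does not show that they came from separate plants. Same-numbered libraries of pkg control and pkg Br-cGMP deviated together (r = 0.356, 0.305 and 0.34 over features). They were read as pairs on that ground alone. Other comparisons had r from -0.154 to 0.407. No r was taken between libraries of different number, so pairing was not established. Promoter and protein sequences were not used here.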

Additional observations from a re-analysis of the deposited data

How the results depend on the processing

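The count of genes past the limma threshold was 0 of 36 in all 5 comparisons with a pseudocount of 0.1, rescaling, limma-voom on recovered reads, plain moderation and reference genes alone, and 0 of 43 with no filter. It was 0 in the 4 comparisons fitted with only the compared groups, where the difference of responses cannot be had, and 0 with each library left out of the comparisons it enters. With the replicate number as a block in the fit it was 0 as well, with a smallest adjusted p of 0.364 by limma, and the block changed no adjusted call. At an unadjusted p under 0.05 the block gave 1 gene higher (CDKF-2) and 0 lower in the wild type response, and 1 higher (KRP4) between genotypes under Br-cGMP. The smallest adjusted p over all alternatives was 0.235 (limma, KRP4, pkg against wild type under Br-cGMP), without the 3 high libraries, an alternative chosen after seeing the data. Limma-voom gave an unadjusted p under 0.05 to 0 genes in both responses, 1 between genotypes without Br-cGMP, 2 under it and 1 for the difference of responses. Unadjusted p-values under 0.05 were kept in 6 (H2B1) and 8 (RPA2B) of 16 alternatives for the wild type response, in 11 (CYCP2-1) between genotypes without Br-cGMP, and in 9 (H2B1) and 11 (KRP4) under it. RPA2B kept one in 21 of 21 for the difference of responses, where its adjusted p by limma was 0.9999. It held 6 to 27 reads in a library, and the 21 alternatives reuse mostly the same libraries, so they are not independent.

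With 1 library left out, the median difference ran from -0.80 to 0.030 for the wild type response, -0.22 to 0.45 for the pkg response, -0.88 to 0.21 for the genotypes without Br-cGMP, -0.18 to 0.48 under it and 0.029 to 1.02 for the difference of responses. Without the 3 high libraries these medians were 0.030, 0.12, -0.21, -0.18 and 0.038. Without the 3 libraries low in root genes they were -0.78, 0.19, -0.28, 0.48 and 0.96. With 3 libraries a group and levels of a few FPKM, depth limits ORC3, ORC5, RPA2C, CYCA2-1, CYCD1-1, CYCD2-2, CYCD4-1 and CYCP2-1, the 8 of 36 genes having 3 reads or fewer in their lowest library. Over all features, the 86 past the limma threshold between genotypes, without Br-cGMP and under it, became 31 and 34 without the 3 libraries low in root genes, 12 and 8 with reference genes alone, and 38 and 36 with only the compared groups. Without Br-cGMP there were 55 when the 3 high libraries were left out and 50 when wild type control 1 was. Under Br-cGMP there were 55 without wild type Br-cGMP 3 or pkg Br-cGMP 3, and 200 without pkg Br-cGMP 1.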
